A study of Rattus norvegicus with 10 samples.

Results

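The 40 genes described here encode proteins of the extracellular matrix and the enzymes and inhibitors that act on it. They are all genes in the study's 4 lists of differentially expressed genes (DEGs) whose symbol begins with that of a collagen, laminin, proteoglycan, elastic-fibre or matricellular protein, lysyl oxidase, ADAMTS or matrix metalloproteinase, TIMP or serpin. They are 40 of the 32622 genes counted, and 40 of the 770 genes to which those lists give a symbol. Each list compares 1 duration of hindlimb suspension (HS) with Control, so every one of the 40 genes was chosen for differing from Control at 1 or more times. The lists hold 25 of them for HS1, 6 for HS3, 12 for HS7 and 16 for HS14. Comparisons with Control are therefore given as a description, without p-values. A comparison between 2 HS times is tested only for genes that the lists name at neither of those times.

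RNA was sequenced from myoblasts grown from the soleus, a postural hindlimb muscle, of 3-month-old male Wistar rats. Control rats stayed in vivarium cages, and in the other 4 groups the hindlimbs were suspended for 1 (HS1), 3 (HS3), 7 (HS7) or 14 days (HS14), so that the soleus bore no weight. Satellite cells, the stem cells of muscle, were isolated and grown in culture. Pre-plating was then used to separate them from fibro-adipogenic progenitors, which stick to an uncoated dish first. The cells were cultured for a further day before RNA isolation. Each group had 2 libraries, and the labels do not name the animals or cultures behind them, so any test measures only the spread between these libraries, which may be technical. The cells were measured after growth in dishes coated with a basement membrane extract and not in the muscle itself. Library totals ran from 20200972 to 28175200 counts. Levels are given as CPM, the count scaled to a common library size. A floor of 3 counts corresponded to 0.104 to 0.152 CPM. CPM is not corrected for gene length, so levels are compared between libraries and not between genes.

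Muscle fibres and their satellite cells lie against a basement membrane of laminins and type IV collagen, surrounded by an interstitial matrix of fibrillar and type VI collagens. Fibril-forming collagens are trimmed by ADAMTS procollagen proteinases and cross-linked by lysyl oxidases, and small leucine-rich proteoglycans bind to the fibrils. Matrix metalloproteinases cut matrix proteins and are inhibited by TIMPs, while serpins inhibit serine proteases. Fibroblasts and fibro-adipogenic progenitors make much of this matrix in muscle, and myoblasts make some of it too.

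Several of the 40 genes are neighbours in the rat genome. In the RefSeq annotation of GRCr8, *Col6a1* and *Col6a2* on chromosome 20, *Dcn* and *Lum* on chromosome 7, *Prelp* and *Fmod* on chromosome 13 and *Serpinb7* and *Serpinb2* on chromosome 13 have 0 protein-coding genes between them. *Mmp12* and *Mmp3* on chromosome 8 have 1, *Mmp1b*. RefSeq gave a promoter for 31 of the 40 genes, in 32 windows of the 250 bases before the start site. The letters TGANTCA, the recognition motif of AP-1 factors, stood on either strand in 6 of the 32 windows (18.8%) and in 6.34% of all 33469 promoter windows of this length. They lay in the promoters of *Col6a1*, *Efemp1*, *Mmp12*, *Mmp3*, *Serpinb2* and *Serpinb7*. A TATA box (TATAAA, either strand) stood in 6 windows (18.8%), those of *Adamtsl2*, *Lama4*, *Mmp12*, *Mmp3*, *Postn* and *Serpinb7*, and in 12.9% of all. Searched on both strands in the same way, CCAAT stood in 31.2% of the members' windows and 34% of all. The letters CAGACA stood in 15.6% of them against 17.2% of all, and GGAATG in 3.12% against 12.1%. These matches describe the letters in the windows and not binding.

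The following 4 promoters, from RefSeq on GRCr8, are shown because 3 of them hold both motifs and the fourth belongs to the chain gene *Col6a1*, whose counts moved apart from those of *Col6a3* below. The window of *Col6a3* held neither motif, *Col6a2* had no promoter, and a link between motifs and levels was not tested. Capitals mark TATAAA and TGANTCA on either strand. They begin 39 and 87 bases before the start site in *Mmp12*, 32 and 71 in *Mmp3*, 32 and 44 in *Serpinb7*, and TGANTCA begins 99 bases before it in *Col6a1*. The 2 marked motifs do not overlap each other, and in *Serpinb7* a CAGACA match on the minus strand overlaps TGANTCA.
*Mmp12*, chr8:12866402-12866651, plus strand: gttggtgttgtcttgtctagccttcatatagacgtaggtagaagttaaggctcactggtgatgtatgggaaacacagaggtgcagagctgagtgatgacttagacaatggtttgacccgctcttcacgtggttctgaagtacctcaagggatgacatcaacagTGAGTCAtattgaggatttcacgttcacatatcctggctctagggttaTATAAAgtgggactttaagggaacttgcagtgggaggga
*Mmp3*, chr8:12925031-12925280, plus strand: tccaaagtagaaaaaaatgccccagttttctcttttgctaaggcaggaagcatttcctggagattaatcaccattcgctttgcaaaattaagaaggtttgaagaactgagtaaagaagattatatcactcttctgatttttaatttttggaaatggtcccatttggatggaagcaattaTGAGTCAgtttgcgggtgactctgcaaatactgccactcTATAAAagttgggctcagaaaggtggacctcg
*Serpinb7*, chr13:23910056-23910305, plus strand: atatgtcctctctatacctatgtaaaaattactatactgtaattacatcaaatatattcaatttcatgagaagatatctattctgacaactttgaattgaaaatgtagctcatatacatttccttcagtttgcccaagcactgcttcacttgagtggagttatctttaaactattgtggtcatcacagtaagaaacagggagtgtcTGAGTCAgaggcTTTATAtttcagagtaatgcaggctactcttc
*Col6a1*, chr20:11905440-11905689, plus strand: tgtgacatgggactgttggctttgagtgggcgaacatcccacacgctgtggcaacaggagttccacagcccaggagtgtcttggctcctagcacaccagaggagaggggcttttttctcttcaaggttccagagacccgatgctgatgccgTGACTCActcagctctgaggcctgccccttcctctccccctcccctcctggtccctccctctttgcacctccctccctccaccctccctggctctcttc

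Most of the 40 genes were lowest in HS1 and highest in HS3 or HS7. The group mean was highest in HS3 for 21 genes, in HS7 for 11, in HS14 for 3 (*Dcn*, *Timp3* and *Serpina3n*), in HS1 for 3 (*Col4a5*, *Serpinb2* and *Serpinb7*) and in Control for 2 (*Mmp3* and *Mmp9*). In 19 of the 40 genes the mean was highest in HS3 and both HS3 libraries lay above the 8 other libraries. Such a peak without overlap was found in 13% of the 13691 genes kept over all libraries. In HS7, 9 of the 40 genes had such a peak (14.3% of all genes). In Control it was 2 of the 40, *Mmp3* and *Mmp9* (2.1% of all genes), and in HS1 also 2 of the 40 (10.7%). In HS14 it was 3 of the 40, *Dcn*, *Timp3* and *Serpina3n* (9.97% of all genes). Peaks in HS1 and HS14 were thus no more frequent in the set than over all genes. The group mean was lowest in HS1 for 28 genes and in HS14 for 8. Both libraries of the lowest group lay below the 8 others in 24 of the 40 genes for HS1 (11.3% of all genes). For HS14 this held in 5 of the 40 (7.34%). Since the genes were chosen from DEG lists, these shares describe the set and are no test.

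**Figure D1:**
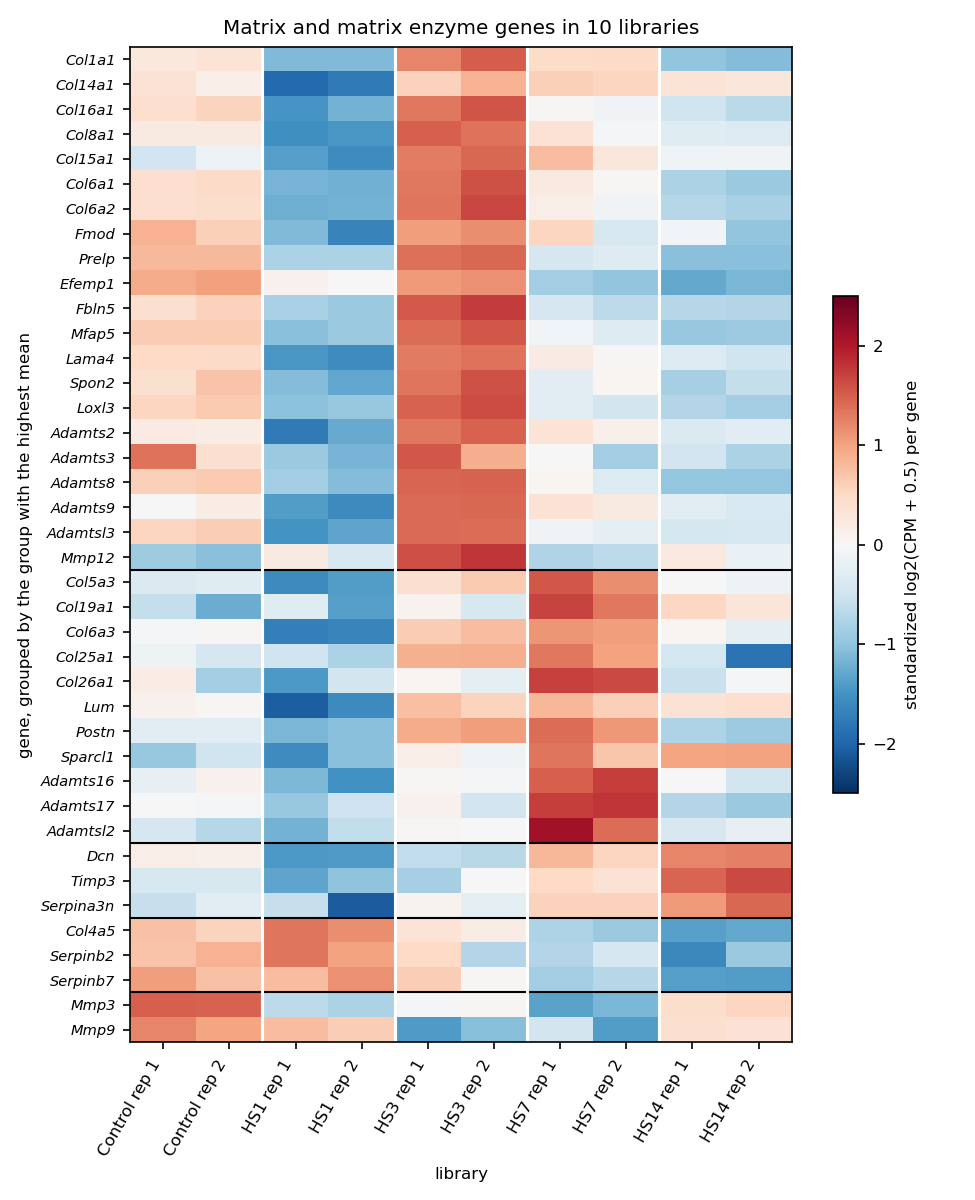
Each row is 1 of the 40 genes and each column 1 of the 10 libraries; colour gives log2(CPM + 0.5), standardized per gene, and black lines separate the genes by the group with the highest mean. The 21 genes at the top are highest in HS3 and most are blue in HS1, while the 11 genes below them are highest in HS7.

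Against Control, a gene was called when its adjusted p in edgeR was under 0.01 and its log2 fold change beyond 1.5, the thresholds of the study. In HS1, 23 of the 40 genes were called, 0 higher and 23 lower, where 2.27% of the 13013 genes tested were called, 0.0922% higher and 2.18% lower. In HS3, 5 were called, 4 higher and 1 lower (1.13% of all genes, 0.777% higher and 0.35% lower). In HS7, 12 of the 39 genes tested were called, 9 higher and 3 lower (3.59% of all genes, 1.95% higher and 1.63% lower), and in HS14, 16 were called, 3 higher and 13 lower (2.54% of all genes, 0.524% higher and 2.01% lower). Because the genes were chosen from these contrasts, nothing is read from the excess over all genes. The median log2 fold change over the set was -1.76 for HS1, 0.80 for HS3, -0.05 for HS7 and -0.88 for HS14, and the corresponding medians over all genes were 0.01, -0.01, 0.00 and 0.00. In HS3, 33 of the 40 genes lay above Control, and 5 of the 40 were called in either direction. Nothing is read from the 33 either, as the share of all genes above Control was not counted. Of the 59 entries of these genes in the study's lists, 55 were called here. The other 4 were *Col25a1* in HS3 (1.47), *Serpina3n* in HS14 (1.49), *Col15a1* in HS1 (-1.54) and *Mmp12* in HS1 (2.32). Just inside the fold threshold lay *Col5a3* in HS7 (1.5), *Col4a5* in HS14 (-1.52) and *Adamts9* in HS3 (1.52).

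Compared directly, HS7 differed from HS3 in most of the genes that the lists name at neither time. Of these 24 genes, 16 passed an adjusted p of 0.01, 2 higher and 14 lower in HS7, while 23% of the 13164 genes tested passed, 10.1% higher and 12.9% lower. The median log2 fold change of the 24 genes was -1.33, against 0.00 over all genes. These 24 genes were chosen for differing from Control in HS1 or HS14, while most genes tested are on no list. The shares over all genes, here and in the comparisons below, therefore do not measure an excess particular to matrix genes. Between HS14 and HS3, 12 of the 18 genes tested passed, 1 higher and 11 lower in HS14 (31.9% of all genes), with a median of -0.73 against 0.01. Between HS14 and HS7, 8 of 15 genes passed, 2 higher and 6 lower in HS14 (23.5% of all genes), with a median of -0.56 against 0.00. Without either HS14 library 5 of the 15 passed, all lower, with *Dcn*, *Adamts2* and *Mmp9* lost.

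The comparisons with HS1 could use fewer genes, since HS1 chose 25 of the 40. Between HS3 and HS1, 5 of the 11 genes tested passed, 3 higher and 2 lower in HS3 (30.5% of all genes). Under DESeq2 and without HS3 replicate 2, 3 of the 11 passed, with *Sparcl1* and *Serpinb2* lost, a share near that over all genes. Between HS7 and HS1, 5 of 6 passed, 2 higher and 3 lower in HS7 (34.1% of all genes). Between HS14 and HS1, 2 of 7 passed, both higher in HS14 (24.8% of all genes), a share close to that over all genes, and 1 passed without HS14 replicate 1. *Prelp* and *Mmp12* were on the lists at 3 times each and have no comparison that their choice left untouched.

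**Figure D2:**
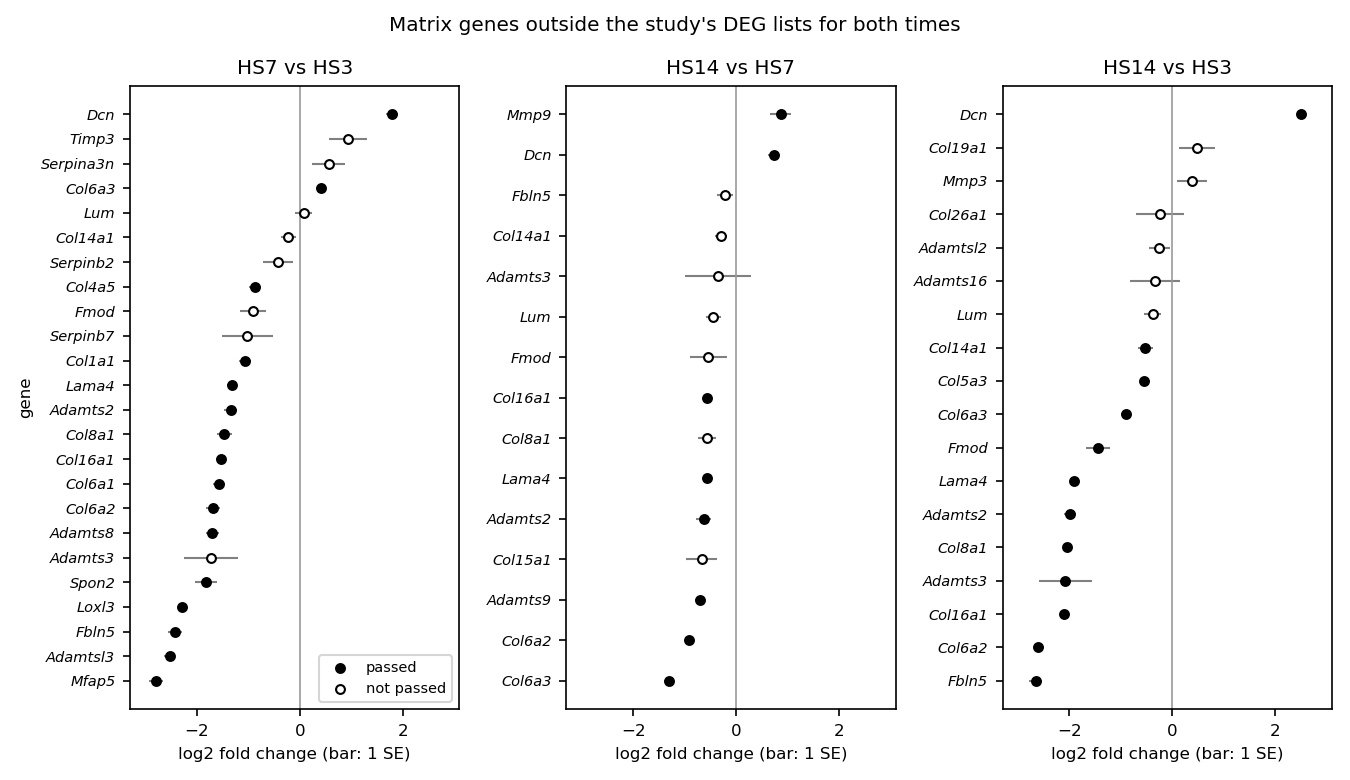
Points give the edgeR log2 fold change between 2 HS times and bars 1 SE, for the genes that the study's lists name at neither time; filled points passed an adjusted p of 0.01. From HS3 to HS7, 14 genes fell and 2, *Dcn* and *Col6a3*, rose, and *Dcn* was higher at the later time in all 3 panels.

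The fibrillar collagens were *Col1a1*, the alpha 1 chain of type I collagen, and *Col5a3*, a chain of type V collagen. *Col1a1* (ENSRNOG00000003897) measured 6538 and 7008 CPM in Control, 2173 and 2174 (HS1), 14189.6 and 18065 (HS3), 7727 and 7849.7 (HS7) and 2404 and 2209.8 (HS14). Both HS3 libraries lay above all others, and the HS1 and HS14 libraries lay below Control without overlap with it. Against Control its log2 fold change was -1.64 (SE 0.0458) in HS1, 1.25 (SE 0.0949) in HS3 and -1.56 (SE 0.0405) in HS14. Between HS3 and HS7 it fell by 1.07 on the log2 scale (SE 0.109, adjusted p = 5.34e-06). *Col5a3* (ENSRNOG00000020525) measured 203 and 209.6 CPM in Control, 95.3 and 108 (HS1), 323 and 379 (HS3), 651 and 515 (HS7) and 252 and 233 (HS14). It peaked in HS7, later than *Col1a1*, and the HS14 libraries remained above Control. *Col5a3* rose between HS1 and HS3 (log2 fold change 1.80, SE 0.0933, adjusted p = 1.09e-15) and was still above HS1 in HS14, (log2 fold change 1.24, SE 0.0669, adjusted p = 1.26e-10). It fell between HS3 and HS14, with a log2 fold change of -0.55 (SE 0.0821, adjusted p = 5.4e-06).

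The fibril-associated collagens *Col14a1*, *Col16a1* and *Col19a1*, which sit on the surface of other fibrils, followed 3 different courses. *Col16a1* measured 97.8 and 107 CPM in Control, 25.5 and 31.3 (HS1), 185 and 221 (HS3), 74.1 and 68.3 (HS7) and 51.0 and 45.3 (HS14). Like *Col1a1* it was highest in HS3 and lowest in HS1, and it fell between HS3 and HS7 (log2 fold change -1.53, SE 0.0983, adjusted p = 5.85e-08) and between HS7 and HS14 (log2 fold change -0.56, SE 0.0813, adjusted p = 4.42e-05). *Col14a1* measured 14.2 and 11.9 CPM in Control, 1.80 and 2.13 (HS1), 16.7 and 21.5 (HS3), 17.1 and 16.2 (HS7) and 13.9 and 13.1 (HS14). Only the HS1 libraries of *Col14a1* stood apart from the rest, with a log2 fold change against Control of -2.73 (SE 0.195), and the levels of HS3 and HS7 overlapped. Its fall from HS3 to HS14 (log2 fold change -0.53, SE 0.143, adjusted p = 0.00406) was lost under DESeq2, without HS3 replicate 2 and without either HS14 library. *Col19a1* stayed between 0.653 and 4.30 CPM and was highest in HS7, where its log2 fold change against Control was 2.07 (SE 0.338). In none of the 3 comparisons between times in which it could be tested did *Col19a1* pass.

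The network and basement membrane collagens also separated. *Col8a1*, a short-chain network collagen, measured 113 and 112 CPM in Control, 27.1 and 29.1 (HS1), 309.7 and 281 (HS3), 126 and 90.5 (HS7) and 74.1 and 71.7 (HS14). Its HS3 libraries were above and its HS1 libraries below all others. It was lower in HS14 than in HS3 (log2 fold change -2.04, SE 0.0841, adjusted p = 2.96e-16) and in HS7 than in HS3 (log2 fold change -1.47, SE 0.147, adjusted p = 0.000121), the latter lost without either HS3 library. *Col4a5*, a chain of the type IV collagen of basement membranes, measured 42.7 and 39.1 CPM in Control, 58.4 and 53.2 (HS1), 34.7 and 32.0 (HS3), 19.3 and 17.7 (HS7) and 14.0 and 14.7 (HS14). HS1 was its highest group, and each later time lay lower without overlap between groups. The log2 fold change was -0.74 (SE 0.105, adjusted p = 9.24e-07) from HS1 to HS3, -0.87 (SE 0.118, adjusted p = 5.81e-05) from HS3 to HS7 and -1.61 (SE 0.0973, adjusted p = 8.84e-09) from HS1 to HS7. *Col15a1*, a basement membrane-associated collagen, ranged from 0.523 CPM in HS1 to 5.88 CPM in HS3, and did not pass between HS7 and HS14 (log2 fold change -0.67, SE 0.299, adjusted p = 0.0923).

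The 3 chains of type VI collagen, which forms beaded filaments next to the basement membrane, did not keep one proportion. *Col6a1* measured 559 and 586 CPM in Control, 150.5 and 146 (HS1), 1171 and 1454 (HS3), 485 and 405 (HS7) and 207 and 184 (HS14). *Col6a2* measured 565 and 579 CPM in Control, 157 and 161 (HS1), 1169 and 1505 (HS3), 465 and 379 (HS7) and 232 and 214 (HS14). These neighbouring genes had the same order of groups, with HS3 highest and HS1 lowest without overlap. *Col6a3*, on chromosome 9, measured 909 and 960.2 CPM in Control, 249 and 259.8 (HS1), 1547 and 1721 (HS3), 2253 and 2135 (HS7) and 980.4 and 792 (HS14), and was highest in HS7. From HS3 to HS7, *Col6a1* fell (log2 fold change -1.58, SE 0.117, adjusted p = 1.39e-06), as did *Col6a2* (log2 fold change -1.68, SE 0.134, adjusted p = 8.71e-06), while *Col6a3* was higher (log2 fold change 0.41, SE 0.0863, adjusted p = 0.00215). That rise of *Col6a3* was lost without HS3 replicate 1 or HS7 replicate 1. From HS7 to HS14, *Col6a3* fell (log2 fold change -1.30, SE 0.0933, adjusted p = 6.54e-06), as did *Col6a2* (log2 fold change -0.91, SE 0.0899, adjusted p = 2.44e-05), and from HS3 to HS14 *Col6a2* fell (log2 fold change -2.61, SE 0.104, adjusted p = 3.19e-11), as did *Col6a3* (log2 fold change -0.90, SE 0.09, adjusted p = 2.51e-07).

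A ratio of 2 genes' raw counts within 1 library does not depend on how the libraries were scaled. The count of *Col6a3* divided by that of *Col6a1* was 1.63 and 1.64 in Control, 1.65 and 1.77 (HS1), 1.32 and 1.18 (HS3), 4.65 and 5.27 (HS7) and 4.73 and 4.31 (HS14). All 4 libraries of HS7 and HS14 lay above 4, and the 6 earlier libraries below 2. The same ratio to *Col6a2* was 1.61 and 1.66 in Control, 1.58 and 1.61 (HS1), 1.32 and 1.14 (HS3), 4.85 and 5.64 (HS7) and 4.23 and 3.70 (HS14). The 4 late libraries again stood apart from the 6 others. *Col6a1* divided by *Col6a2*, by contrast, stayed between 0.859 and 1.07 in all 10 libraries. These ratios are not per length, so they show a change between libraries and not the proportion of the chains.

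The remaining collagens, *Col25a1* (a membrane-bound collagen) and *Col26a1*, were low and highest in HS7. *Col25a1* measured 1.86 and 1.40 CPM in Control, 1.31 and 0.958 (HS1), 4.52 and 4.57 (HS3), 6.40 and 5.01 (HS7) and 1.38 and 0.168 (HS14). HS3 and HS7 lay above the other groups, and the HS14 libraries differed widely, with only 4 counts in HS14 replicate 2. *Col26a1* measured 1.34 and 0.531 CPM in Control, 0.245 and 0.784 (HS1), 1.22 and 0.954 (HS3), 3.81 and 3.67 (HS7) and 0.726 and 1.14 (HS14). Its HS7 libraries stood above the 8 others, which overlapped one another, and against Control the log2 fold change in HS7 was 2.0 (SE 0.379). *Col26a1* passed in none of the 3 comparisons between times in which it was tested.

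**Figure D3:**
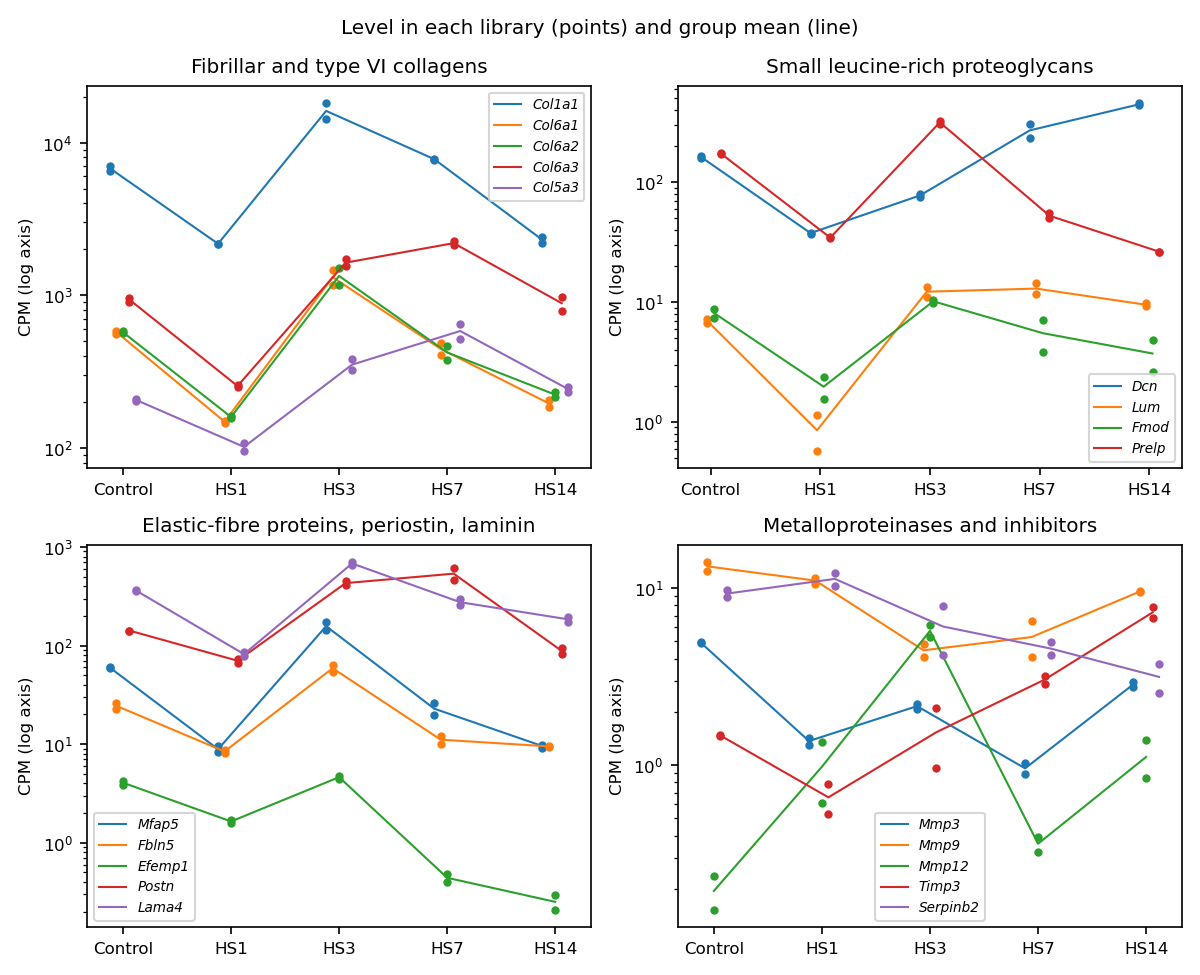
Points show CPM in each library on a log axis and lines join the group means, in 4 panels by role. *Col1a1*, *Col6a1* and *Col6a2* peak in HS3 and fall afterwards while *Col6a3* is highest in HS7, and *Dcn* climbs from HS1 to HS14, the last at 439 and 454 CPM.

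The 4 small leucine-rich proteoglycans, which bind collagen fibrils, were all lower in HS1 than in Control and then parted. *Dcn* (decorin, ENSRNOG00000004554) measured 165 and 159.9 CPM in Control, 37.2 and 38.0 (HS1), 80.2 and 74.9 (HS3), 306 and 235 (HS7) and 439 and 454 (HS14). From HS1 on, each later group lay above the one before it without overlap, and *Dcn* was the only gene of the set among those tested that rose from HS3 to HS14 and passed. The log2 fold change was 1.78 (SE 0.116, adjusted p = 3.46e-07) from HS3 to HS7 and 2.5 (SE 0.0815, adjusted p = 2.69e-18) from HS3 to HS14. From HS7 to HS14 it was 0.73 (SE 0.119, adjusted p = 0.00431), which was lost without either HS14 library.

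*Lum* (lumican), the neighbour of *Dcn*, measured 7.2 and 6.68 CPM in Control, 0.572 and 1.13 (HS1), 13.3 and 11.1 (HS3), 14.3 and 11.6 (HS7) and 9.23 and 9.77 (HS14). Its HS1 libraries stood below all others, with a log2 fold change against Control of -3.03 (SE 0.289), and HS3 and HS7 overlapped. *Lum* passed in none of the 3 comparisons between times, with adjusted p = 0.782 from HS3 to HS7, 0.0338 from HS7 to HS14 and 0.0633 from HS3 to HS14. The raw count of *Dcn* divided by that of *Lum* was 23.0 and 23.9 in Control, 65.0 and 33.6 (HS1), 6.03 and 6.75 (HS3), 21.4 and 20.3 (HS7) and 47.6 and 46.5 (HS14). It was lowest in the 2 HS3 libraries, and the HS1 value of 65 rests on 14 counts of *Lum*.

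*Prelp*, a further member of this family, measured 173 and 175 CPM in Control, 34.3 and 34.7 (HS1), 307 and 324 (HS3), 50.0 and 55.0 (HS7) and 26.3 and 26.4 (HS14). HS3 lay above Control and the 3 other groups far below it, with log2 fold changes against Control of -2.34 (SE 0.0639) in HS1, -1.72 (SE 0.065) in HS7 and -2.73 (SE 0.0657) in HS14. *Fmod* (fibromodulin), its neighbour, measured 8.82 and 7.40 CPM in Control, 2.37 and 1.57 (HS1), 9.81 and 10.5 (HS3), 7.13 and 3.87 (HS7) and 4.84 and 2.61 (HS14). The libraries of HS7 and HS14 overlapped and differed within each group by more than the 2 group means did. *Fmod* was lower in HS14 than in HS3 (log2 fold change -1.45, SE 0.23, adjusted p = 2.49e-05), and did not pass between HS3 and HS7 (log2 fold change -0.90, SE 0.249, adjusted p = 0.0134).

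The elastic-fibre proteins *Mfap5* (a microfibril protein), *Fbln5* (fibulin-5, which helps to assemble elastic fibres) and *Efemp1* (fibulin-3) were highest in HS3 and fell steeply afterwards. *Mfap5* measured 59.2 and 59.9 CPM in Control, 8.26 and 9.50 (HS1), 143 and 172 (HS3), 26.1 and 19.6 (HS7) and 9.23 and 9.90 (HS14). HS1 and HS14 overlapped at the lowest levels. *Fbln5* measured 22.9 and 26.0 CPM in Control, 8.79 and 8.06 (HS1), 54.0 and 63.8 (HS3), 12.1 and 10.1 (HS7) and 9.58 and 9.39 (HS14). Between HS3 and HS7, *Mfap5* fell (log2 fold change -2.80, SE 0.141, adjusted p = 1.77e-07), the most of the 24 genes compared, as did *Fbln5* (log2 fold change -2.43, SE 0.13, adjusted p = 1.18e-08). From HS3 to HS14 *Fbln5* fell (log2 fold change -2.66, SE 0.121, adjusted p = 2.22e-15), and from HS7 to HS14 it did not pass (log2 fold change -0.22, SE 0.157, adjusted p = 0.313).

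*Efemp1* measured 3.88 and 4.25 CPM in Control, 1.72 and 1.57 (HS1), 4.47 and 4.77 (HS3), 0.486 and 0.395 (HS7) and 0.207 and 0.295 (HS14). HS3 lay just above Control without overlap, and the 4 libraries of HS7 and HS14 were below the 6 others. *Efemp1* rose from HS1 to HS3 (log2 fold change 1.5, SE 0.292, adjusted p = 0.000107). Against Control its log2 fold change was -3.19 (SE 0.365) in HS7 and -4.02 (SE 0.407) in HS14, the lowest of the set at both times.

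The laminin and matricellular genes had different peaks. *Lama4*, the alpha 4 chain of laminins in vascular and muscle basement membranes, measured 364 and 359.8 CPM in Control, 85.3 and 78.3 (HS1), 662 and 698 (HS3), 294 and 257 (HS7) and 195 and 173 (HS14). Its group means had the same order as those of *Col6a1* and *Col6a2*, with HS3 highest and HS1 lowest. It fell (log2 fold change -1.32, SE 0.0879, adjusted p = 6.74e-08) from HS3 to HS7 and (log2 fold change -0.57, SE 0.0761, adjusted p = 4.28e-05) from HS7 to HS14. *Postn* (periostin), a matricellular protein that binds collagen, measured 142 and 142 CPM in Control, 67.3 and 73.0 (HS1), 409 and 451 (HS3), 608 and 464 (HS7) and 93.5 and 82.9 (HS14). HS3 and HS7 stood together above Control, by 1.59 (SE 0.0682) and 1.92 (SE 0.147), and HS1 and HS14 stood below it. *Postn* was higher in HS14 than in HS1 (log2 fold change 0.31, SE 0.0749, adjusted p = 0.00325), which was lost with all 10 libraries in one fit, without HS1 replicate 1 and without HS14 replicate 1.

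*Spon2* (spondin 2) measured 5.06 and 6.45 CPM in Control, 1.39 and 1.13 (HS1), 10.6 and 12.8 (HS3), 2.92 and 3.79 (HS7) and 1.80 and 2.19 (HS14). It was highest in HS3 without overlap and fell from HS3 to HS7 (log2 fold change -1.82, SE 0.215, adjusted p = 1.53e-05). *Sparcl1*, a relative of the collagen-binding protein SPARC, measured 1.03 and 1.48 CPM in Control, 0.572 and 0.958 (HS1), 2.39 and 1.99 (HS3), 5.19 and 3.40 (HS7) and 4.11 and 4.17 (HS14). HS7 and HS14 overlapped and lay above the 6 other libraries. Its rise from HS1 to HS3 (log2 fold change 1.52, SE 0.43, adjusted p = 0.00517) was lost under DESeq2, without HS1 replicate 1 and without either HS3 library.

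*Loxl3*, a lysyl oxidase-like enzyme that cross-links collagen and elastin, was the only cross-linking enzyme in the set. It measured 73.7 and 81.2 CPM in Control, 20.4 and 21.6 (HS1), 159 and 182 (HS3), 38.0 and 32.6 (HS7) and 25.6 and 23.4 (HS14). HS3 lay above Control and the 3 other groups below it, all without overlap. From HS3 to HS7 its log2 fold change was -2.29 (SE 0.103, adjusted p = 2.82e-09).

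Among the 6 ADAMTS proteases, *Adamts2* and *Adamts3* cut the N-terminal propeptide from procollagens, and *Adamts8* and *Adamts9* cut large proteoglycans. *Adamts9* measured 29.7 and 34.1 CPM in Control, 9.56 and 8.15 (HS1), 91.2 and 93.0 (HS3), 39.4 and 35.5 (HS7) and 23.7 and 21.9 (HS14). *Adamts8* measured 22.9 and 23.9 CPM in Control, 7.85 and 6.66 (HS1), 43.0 and 43.5 (HS3), 15.4 and 11.6 (HS7) and 7.23 and 7.2 (HS14). *Adamts2* measured 15.9 and 15.8 CPM in Control, 3.02 and 4.79 (HS1), 38.7 and 44.1 (HS3), 17.9 and 15.2 (HS7) and 10.2 and 11.0 (HS14). All 3 were highest in HS3 without overlap, *Adamts9* and *Adamts2* were lowest in HS1, and *Adamts8* had overlapping low levels in HS1 and HS14. Between HS3 and HS7, *Adamts2* fell (log2 fold change -1.35, SE 0.125, adjusted p = 1.57e-06), as did *Adamts8* (log2 fold change -1.70, SE 0.135, adjusted p = 4.08e-07). From HS7 to HS14, *Adamts9* fell (log2 fold change -0.71, SE 0.0988, adjusted p = 2.81e-05), as did *Adamts2* (log2 fold change -0.63, SE 0.139, adjusted p = 0.00173), which was lost without HS7 replicate 1 or either HS14 library. *Adamts2* was also lower in HS14 than in HS3 (log2 fold change -1.99, SE 0.125, adjusted p = 1.18e-12).

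*Adamts3* was close to the floor, at 1.62 and 0.872 CPM in Control, 0.245 and 0.174 (HS1), 1.83 and 1.23 (HS3), 0.649 and 0.276 (HS7) and 0.415 and 0.295 (HS14), with 4 counts in its lowest library. It was lower in HS14 than in HS3 (log2 fold change -2.08, SE 0.516, adjusted p = 0.00191), which was lost under DESeq2, without HS3 replicate 1 and without either HS14 library, and it did not pass between HS3 and HS7 (log2 fold change -1.73, SE 0.53, adjusted p = 0.0213). *Adamts16* and *Adamts17* stood out in HS7 instead. *Adamts16* measured 0.830 and 1.18 CPM in Control, 0.163 and 0 (HS1), 1.07 and 0.994 (HS3), 4.22 and 5.09 (HS7) and 1.04 and 0.590 (HS14). The value of 0 in HS1 replicate 2 allows up to 0.131 CPM by counting error alone, if counts are independent. *Adamts17* ranged from 0.123 to 0.661 CPM outside HS7 and measured 2.55 and 2.65 CPM in HS7. Against Control, the log2 fold change in HS7 was 2.21 (SE 0.31) for *Adamts16* and 2.16 (SE 0.385) for *Adamts17*. *Adamts16* did not pass between HS3 and HS14 (log2 fold change -0.34, SE 0.478, adjusted p = 0.602), and *Adamts17* was too low to be tested in the 3 comparisons between times open to it.

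The ADAMTS-like proteins, which resemble these enzymes but lack the protease domain, had opposite peaks. *Adamtsl3* measured 41.5 and 45.2 CPM in Control, 4.01 and 5.01 (HS1), 109.9 and 107 (HS3), 20.7 and 17.4 (HS7) and 13.9 and 14.4 (HS14). HS3 was highest and HS1 lowest, a 24.1-fold range between group means, and the log2 fold change from HS3 to HS7 was -2.53 (SE 0.106, adjusted p = 1.51e-09). *Adamtsl2* measured 4.94 and 4.25 CPM in Control, 3.31 and 4.49 (HS1), 6.25 and 6.20 (HS3), 17.6 and 12.4 (HS7) and 5.01 and 5.56 (HS14). Its HS7 libraries stood above the 8 others, which lay between 3.31 and 6.25 CPM, and it passed in none of the 3 comparisons between times that leave HS7 out.

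The matrix metalloproteinases had different courses. *Mmp9* (gelatinase B) measured 14.0 and 12.6 CPM in Control, 11.4 and 10.6 (HS1), 4.07 and 4.85 (HS3), 6.49 and 4.11 (HS7) and 9.61 and 9.52 (HS14). Control and HS1 were the highest groups and HS3 and HS7 overlapped at the lowest levels. *Mmp9* fell from HS1 to HS7 (log2 fold change -1.08, SE 0.209, adjusted p = 0.0007), lost without HS1 replicate 1, and rose from HS7 to HS14 (log2 fold change 0.86, SE 0.208, adjusted p = 0.00384), lost without HS7 replicate 2 or either HS14 library. *Mmp3* (stromelysin-1) measured 4.94 and 4.89 CPM in Control, 1.43 and 1.31 (HS1), 2.08 and 2.23 (HS3), 0.892 and 1.03 (HS7) and 2.77 and 2.95 (HS14). Every HS library was below both Control libraries, and HS7 was the lowest group. *Mmp3* did not pass between HS3 and HS14 (log2 fold change 0.38, SE 0.297, adjusted p = 0.32).

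*Mmp12* (macrophage metalloelastase), separated from *Mmp3* by 1 coding gene, measured 0.237 and 0.152 CPM in Control, 1.35 and 0.610 (HS1), 5.29 and 6.20 (HS3), 0.324 and 0.395 (HS7) and 1.38 and 0.842 (HS14). Both HS3 libraries lay far above the rest, and the Control libraries, with 4 counts in the lower one, lay lowest. Against Control its log2 fold change was 4.85 (SE 0.378) in HS3, the highest of the set at any time, 2.32 (SE 0.651) in HS1 and 2.5 (SE 0.611) in HS14, and in HS7 it was too low to be tested. The raw count of *Mmp12* divided by that of *Mmp3* was 0.0480 and 0.0310 in Control, 0.943 and 0.467 (HS1), 2.54 and 2.79 (HS3), 0.364 and 0.385 (HS7) and 0.5 and 0.286 (HS14). In HS3 alone this ratio exceeded 1. *Mmp3*, *Mmp12* and *Mmp1b* belong to 1 gene family, and how reads shared between similar genes were counted is not stated.

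The 4 protease inhibitors comprised a pair that was highest in HS14 and a pair that was lowest there. *Timp3*, a TIMP that binds to the matrix, measured 1.46 and 1.48 CPM in Control, 0.531 and 0.784 (HS1), 0.966 and 2.11 (HS3), 3.20 and 2.88 (HS7) and 6.81 and 7.79 (HS14). HS14 was highest and HS1 lowest, and the HS3 libraries differed from each other and overlapped with Control. *Timp3* rose from HS1 to HS7 (log2 fold change 2.19, SE 0.381, adjusted p = 0.000253), and did not pass from HS1 to HS3 (log2 fold change 1.25, SE 0.499, adjusted p = 0.0439) or from HS3 to HS7 (log2 fold change 0.94, SE 0.371, adjusted p = 0.0661). *Serpina3n*, an inhibitor of serine proteases from a cluster of similar genes, so that its count is uncertain, measured 1.30 and 1.59 CPM in Control, 1.31 and 0.348 (HS1), 2.03 and 1.67 (HS3), 2.76 and 2.76 (HS7) and 3.67 and 4.55 (HS14). It too was highest in HS14, and its rise from HS1 to HS7 (log2 fold change 1.70, SE 0.466, adjusted p = 0.00868) was lost under DESeq2, without HS1 replicate 2 and without either HS7 library.

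*Serpinb2* (plasminogen activator inhibitor 2) measured 8.94 and 9.71 CPM in Control, 12.3 and 10.3 (HS1), 7.98 and 4.17 (HS3), 4.18 and 4.94 (HS7) and 2.56 and 3.75 (HS14). *Serpinb7*, its neighbour, measured 1.66 and 1.40 CPM in Control, 1.43 and 1.74 (HS1), 1.32 and 0.954 (HS3), 0.527 and 0.592 (HS7) and 0.346 and 0.337 (HS14). Both were highest in Control and HS1 and lowest in HS14. *Serpinb2* fell from HS1 to HS7 (log2 fold change -1.32, SE 0.189, adjusted p = 4.35e-05), and from HS1 to HS3 (log2 fold change -0.91, SE 0.232, adjusted p = 0.00354), the latter lost under DESeq2 and without HS3 replicate 2. *Serpinb7* passed in none of the 3 comparisons open to it, its log2 fold change from HS1 to HS7 being -1.51 (SE 0.454, adjusted p = 0.0132).

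Other genes of the matrix, from lists that hold no member of the set, could be found only where the study's lists give their symbol, so they too are genes called against Control. Of 48 further matrix genes, 17 had an identifier. In HS1, 15 of the 17 were called lower and 0 higher (2.18% of all genes lower), in HS3, 7 higher and 0 lower (0.777% of all genes higher), in HS7, 0 (3.59% of all genes in either direction), and in HS14, 8 lower and 0 higher (2.01% of all genes lower). Since being on a list gave them their symbol, nothing is read from these shares. Between HS3 and HS7, 8 of the 10 genes listed at neither time passed, 1 higher and 7 lower in HS7, where 23% of all genes passed. The 3 with the highest mean CPM were *Bgn* (biglycan, a small leucine-rich proteoglycan), *Fbn1* (fibrillin-1, the main protein of microfibrils) and *Ltbp2* (a microfibril-associated protein). *Bgn* measured 1663 and 1732 CPM in Control, 427 and 460.2 (HS1), 3599 and 3931 (HS3), 1231 and 990.2 (HS7) and 605 and 574 (HS14), and *Fbn1* had the same order of groups. Between HS3 and HS7, *Bgn* fell (log2 fold change -1.78, SE 0.106, adjusted p = 4.33e-08), as did *Fbn1* (log2 fold change -1.79, SE 0.0926, adjusted p = 8.43e-09) and *Ltbp2* (log2 fold change -1.76, SE 0.0868, adjusted p = 5.16e-09).

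Of 22 genes of matrix synthesis and modification, 4 had an identifier, all called lower in HS1 (4 of 4, against 2.18% of all genes) and in no other group. *Has2*, which makes hyaluronan, measured 114 and 118 CPM in Control, 27.1 and 29.2 (HS1), 235 and 213 (HS3), 75.6 and 68.4 (HS7) and 42.0 and 41.1 (HS14), and fell from HS3 to HS7 (log2 fold change -1.65, SE 0.0906, adjusted p = 1.19e-08). Between those times, 3 of the 4 passed (23% of all genes) and were lower, the others being *Cyp1b1* (log2 fold change -1.41, SE 0.0981, adjusted p = 1.47e-07) and *Csgalnact1*, a chondroitin sulphate enzyme, (log2 fold change -1.48, SE 0.18, adjusted p = 2.08e-05). Of 23 matrix receptors, 7 had an identifier, all integrins. Against Control, 3 of the 7 were called lower in HS1 (2.18% of all genes), 1 lower in HS3 (0.35%), 2 higher and 2 lower in HS7 (1.95% and 1.63%) and 1 lower in HS14 (2.01%), again of genes that the lists name. *Itga3*, an integrin chain that pairs into a laminin receptor, measured 473 and 474 CPM in Control, 748 and 669 (HS1), 123 and 126 (HS3), 101 and 120.3 (HS7) and 192 and 207 (HS14). It was highest in HS1 and lowest in HS3 and HS7, and it was lower in HS14 than in HS1 (log2 fold change -1.85, SE 0.0618, adjusted p = 2.68e-13). *Itga8* and *Itgb6* were highest in HS7. *Itga8* was higher in HS14 than in HS3 (log2 fold change 0.53, SE 0.0984, adjusted p = 8.57e-05), and *Itgb6* higher in HS3 than in HS1 (log2 fold change 0.98, SE 0.126, adjusted p = 1.46e-07).

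Markers of cell types, too, could be found only where the study's lists give their symbol. Those found were therefore chosen for differing from Control, and nothing is read from the fact that they differ. Of 14 fibroblast markers, 8 had an identifier, and 3 of these (*Dcn*, *Lum* and *Col1a1*) are members of the set. The summed level of the other 5 (*Pdgfra*, *Osr1*, *Twist2*, *Thy1* and *Dpt*) was 648 and 667 CPM in Control, 202 and 199 (HS1), 1248 and 1387 (HS3), 245 and 227 (HS7) and 146 and 135 (HS14). This sum was above Control in HS3 and below Control in HS1, HS7 and HS14, as were *Mfap5*, *Fbln5*, *Loxl3* and *Prelp*. It is mostly *Thy1* and *Pdgfra*, and not all 5 markers shared its course. *Dpt* lay above Control in HS7 (5.03 and 5.05 against 3.52 and 3.49 CPM). *Osr1* in HS1 (7.19 and 5.66 CPM) overlapped with Control (6.48 and 8.72 CPM). *Col1a1* and *Col6a3* differed from the sum in lying above Control in HS7, and *Dcn* in lying below Control in HS3 and above it in HS7 and HS14. None of the 5 was at 0 in any library. In bulk RNA, fewer cells of a type and less RNA per cell cannot be told apart, and the part of the fibroblast share in the matrix results was not tested.

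The summed level of 6 of 12 myogenic markers (*Myog*, *Mymk*, *Mymx*, *Myh3*, *Actn2* and *Tnnt2*) was 875 and 921 CPM in Control, 534 and 485 (HS1), 2092 and 2158 (HS3), 4518 and 2802 (HS7) and 619 and 553 (HS14). All 6 were detected in every library, and the 6 others have no symbol in the lists. The HS7 libraries differed, with every one of the 6 at a higher level in replicate 1 (median log2 difference 0.62). Of the 40 matrix genes, 30 were also higher in HS7 replicate 1 than in replicate 2, with a median difference of 0.23, and in the other groups the median difference lay between -0.08 and 0.02. Of 9 smooth muscle or pericyte markers, 3 (*Pdgfrb*, *Notch3* and *Rgs5*) summed to 200.04 and 198 CPM in Control, 73.1 and 73.1 (HS1), 377 and 409.7 (HS3), 261 and 218 (HS7) and 182 and 154 (HS14). The sum is mostly *Pdgfrb* outside HS7, where *Pdgfrb* measured 121 and 85.4 CPM, below its 170 and 165 CPM in Control. *Notch3* had another course, with 29.6 and 33.3 CPM in Control, 29.0 and 27.4 CPM in HS3 and its highest level, 140 and 132 CPM, in HS7. *Rgs5* was at 0 in both Control libraries and highest in HS14, at 1.28 and 1.14 CPM.

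Endothelial, leukocyte and Schwann cell markers could also be found only in part. Their sums depend on which markers the study's lists name, so they are not compared with the sums of the other cell types. The 5 of 10 endothelial markers with an identifier summed to 2.37 and 4.70 CPM in Control, 1.06 and 1.31 (HS1), 9.35 and 8.23 (HS3), 10.7 and 8.77 (HS7) and 15.5 and 13.9 (HS14), and one of them, *Emcn*, was at 0 in 4 libraries. They did not share one course. *Kdr* made up most of the HS3 sum, at 8.03 and 6.80 CPM, and fell to 3.18 and 3.20 CPM in HS14. *Cdh5*, *Tie1*, *Vwf* and *Emcn* were highest in HS14. Of 10 leukocyte markers only *Lyz2* had an identifier, with 0.553 to 2.21 CPM outside HS3 and 4.47 and 7.32 CPM in HS3, the group in which *Mmp12*, a gene known from macrophages, was highest. The 2 of 5 Schwann cell markers (*S100b* and *Ngfr*) summed to 15.9 and 14.0 CPM in Control, 3.31 and 2.53 (HS1), 35.5 and 33.7 (HS3), 8.84 and 7.30 (HS7) and 8.75 and 8.46 (HS14). *S100b* makes up most of that sum outside HS14, where it measured 4.32 and 4.76 CPM. *Ngfr* was highest in HS14, at 4.43 and 3.71 CPM against 0.712 and 0.759 CPM in Control. The part of these cells in the matrix results was not tested either.

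**Figure D4:**
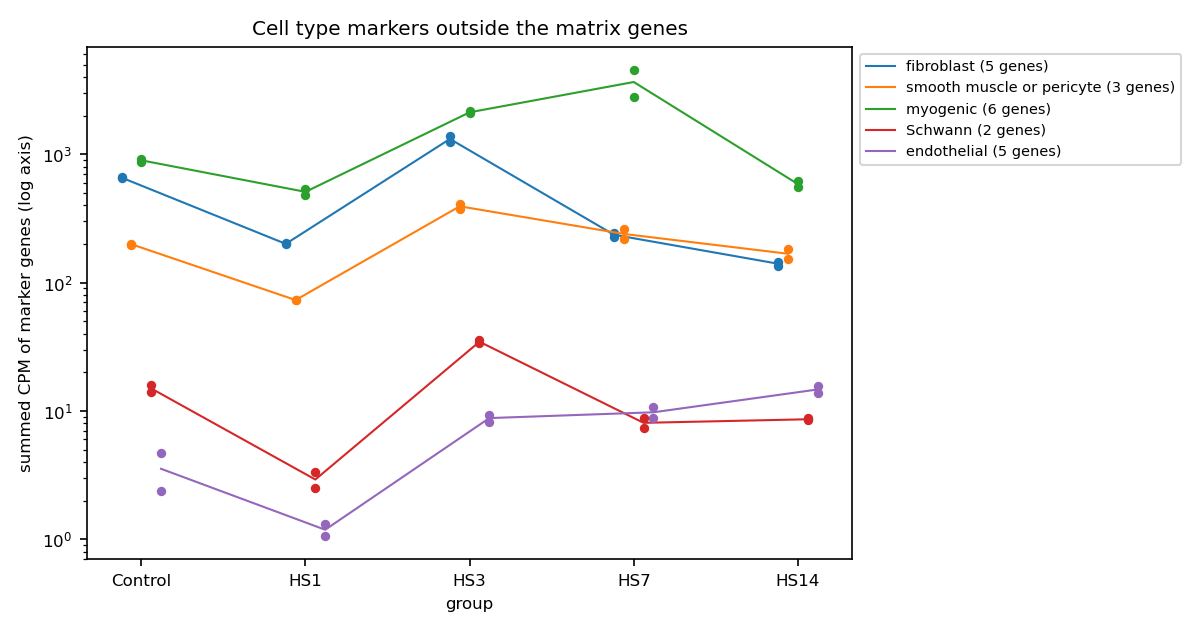
Points show the summed CPM of marker genes that are no members of the set, on a log axis, in each library, and lines join the group means. The fibroblast sum is highest in HS3 (1248 and 1387 CPM) and the myogenic sum in HS7 (4518 and 2802 CPM). The endothelial sum is highest in HS14 (15.5 and 13.9 CPM), although *Kdr*, one of its genes, peaks in HS3.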

How the data were processed

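RNA-seq libraries had been made with a stranded mRNA kit, 2 for each of 5 groups. The authors deposited raw counts of reads per Ensembl gene, with no normalization. The study's methods name the genome mRatBN7.2, while the submitters' processing notes list Rnor_6.0, FastQC 0.11.9, STAR 2.7, featureCounts 1.6.4 and DESeq2. How strand, read pairs and multiply mapped reads were counted is not stated, and between 69.4% and 72.0% of counts from 1 to 20 were even. Symbols came from the study's DEG lists, whose fold changes and p-values were not used, and 47 of their 817 genes had none. The members and lists were chosen with earlier results of these data known.

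Each comparison was fitted on its 4 libraries with edgeR 4.0.16 in R 4.3.3 (limma 3.58.1): genes were filtered by filterByExpr, TMM factors applied and groups compared by the quasi-likelihood test with robust fitting, and p-values were adjusted after Benjamini and Hochberg over every gene tested. SE is the log2 fold change divided by the root of the test's F. CPM used TMM factors over all 10 libraries. On simulated data with 200 changed genes the fit was tested before use. All 40 genes are named. Values per library are given for the 4 genes of each role with the highest mean CPM (2 in roles of 3 or fewer), for up to 5 passing genes per comparison between HS times and for a few further genes chosen after their values were seen (*Col6a1* and *Mmp12*). Other lists are given by counts with the 3 genes of highest mean CPM as examples. As alternatives, DESeq2 1.42.0 was run, TMM was replaced by RLE factors, the filter was dropped, the 10 libraries were fitted together, the replicate number was added as a block, the fold threshold was set to 1 and every library was left out in turn. Promoters were matched by symbol and 9 genes had none: *Col14a1*, *Col25a1*, *Mmp9*, *Col6a2*, *Dcn*, *Col1a1*, *Adamts16*, *Adamts8* and *Prelp*. Floors cover counting error only and take each count as independent. They are too low if both reads of a pair were counted, which is not stated.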

Additional observations from a re-analysis of the deposited data

Results flagged for a closer look

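The following 8 differences between HS times had log2 fold changes against Control of opposite sign, each beyond 1, and passed an adjusted p of 0.01 in edgeR when the 2 times were compared directly. The limit of 1 was chosen after the values were seen, and the 2 times share the Control libraries.

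From HS3 to HS7, *Mfap5* had a difference of -2.80 (SE 0.141, adjusted p = 1.77e-07), with 1.39 in HS3 and -1.38 in HS7 against Control. *Adamtsl3* had -2.53 (adjusted p = 1.51e-09), with 1.32 in HS3 and -1.18 in HS7. *Fbln5* had -2.43 (adjusted p = 1.18e-08), with 1.27 in HS3 and -1.14 in HS7. *Loxl3* had -2.29 (adjusted p = 2.82e-09), with 1.14 in HS3 and -1.13 in HS7.

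From HS3 to HS14, *Fbln5* had -2.66 (adjusted p = 2.22e-15) and stood at -1.37 against Control in HS14. *Col6a2* had -2.61 (adjusted p = 3.19e-11), with 1.22 in HS3 and -1.36 in HS14. *Dcn* went the other way, with 2.5 (adjusted p = 2.69e-18), from -1.07 in HS3 to 1.45 in HS14. From HS1 to HS7, *Timp3* had 2.19 (adjusted p = 0.000253), from -1.16 in HS1 to 1.05 in HS7. In all of these comparisons the 2 libraries of one time lay on 1 side of the 2 libraries of the other. With 2 libraries per group, single libraries could not be tested as outliers.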

How the results depend on the processing

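None of the differences that passed or were called changed direction under the alternatives run. Of 240 single-gene differences, 18 that were neither changed sign under at least 1 alternative (largest 0.51 on the log2 scale), such as *Col19a1* in HS1 against Control (0.14, and -0.51 without HS1 replicate 1), and the median of the set in HS7 (-0.05) reached 0.16 without HS7 replicate 2. Most sensitive was the fold threshold. With 1 as the limit on the log2 scale, 18 genes instead of 5 were called in HS3 and 20 instead of 12 in HS7, and between times 3 instead of 5 remained past it from HS1 to HS3, 1 instead of 8 from HS7 to HS14 and 1 instead of 2 between HS1 and HS14. DESeq2 passed 3 genes from HS1 to HS3, and all 10 libraries in one fit passed 1 between HS1 and HS14. Without single libraries the counts ranged from 21 to 23 in HS1, 5 to 5 in HS3, 10 to 12 in HS7 and 13 to 15 in HS14 against Control, from 3 to 5 between HS3 and HS1 (3 without HS3 replicate 2), 14 to 17 between HS7 and HS3, 5 to 10 between HS14 and HS7 (5 without either HS14 library), 4 to 4 between HS7 and HS1, 10 to 11 between HS14 and HS3 and 1 to 2 between HS14 and HS1 (1 without HS14 replicate 1). Of 81 differences of single genes between times, 48 passed, 36 of them under every alternative that gave a value.

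Over all genes kept, same-numbered libraries did not deviate together (correlations from -0.0165 to 0.0417 over 10 pairs). The labels do not say what the numbers mark, and an effect shared by few genes could go unseen in such correlations, so pairing is not excluded. With the replicate block, 21, 5, 11 and 16 genes were called against Control in HS1, HS3, HS7 and HS14, and 9 instead of 8 passed between HS14 and HS7, with 80 of 81 single differences on the same side. With 2 libraries per group, genes near the floor such as *Adamts3*, *Adamts17* and *Col26a1* are the least certain, and a symbol was known only for genes of the study's lists. The causes of these changes were not tested.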
